A study of Mus musculus with 3 samples.

Results

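The comparison of circulating with primary tumour cells set the array labelled CCC against the array labelled PCC, gene by gene, for every named gene that at least 1 of these arrays detected. A probe counted as detected at a detection p-value under 0.01, which compares its signal with that of negative control probes. The rule kept 11125 probes of 8270 genes, of 16593 genes with a probe, and 7292 of them were detected on both arrays, 776 on CCC only and 202 on PCC only. The 20 probes just inside the limit had a detection p of 0.00877 and intensities of 38.65 to 39.89 on the array that let them in, and the 20 just outside had a detection p of 0.01 and 38.16 to 39.1. Within these genes, 4 classes were described: secreted factors, receptors, transcription factors and transporters, sorted into 58 families.

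Both samples were 4T1 cells, a mouse mammary carcinoma line, that had been labelled with GFP, grown in the mammary pad of female Balb/C mice aged 10 to 12 weeks and purified by flow sorting. The PCC cells came from the primary tumour and the CCC cells from the blood, with no other treatment named in the labels. A further array, MCC, held cells from lung metastases of the same model and is used here for the normalization and as a further value of single genes. Each group was 1 array, and the number of mice behind an array was not given, so no difference below has a replicate error or a p-value.

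Tumour cells in the blood have left the matrix, the stroma and the low oxygen of the tumour, and meet plasma, platelets and leukocytes instead. Cells read such surroundings through surface receptors, which bind secreted ligands and pass the signal to transcription factors. Those factors set, among other genes, the transporters that bring in amino acids, sugars and ions. 4T1 tumours are known for secreting factors that act on myeloid cells, which accumulate in the blood, spleen and tumour of the host.

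Of all 25697 probes, 41.0% were detected on PCC and 44.7% on CCC. The carcinoma label was checked against 11 epithelial genes with a probe, of which 4 were detected on each array. Keratin 8 (Krt8) had an intensity of 5562 on PCC and 6304 on CCC, and E-cadherin (Cdh1) 118 and 261, while Krt19, Krt14, Krt5, Cldn3, Cldn7 and Esrp1 were detected on neither. Markers of other cells were unequal between the arrays. The 10 macrophage markers were detected on both, with a summed intensity of 6529 on PCC and 39081 on CCC. T cell markers summed to 906 (5 of 10 detected, Cd4 and Cd8a on neither array) and 5643 (8 of 10), and B cell markers to 50 (0 of 7) and 1274 (5 of 7, without Ms4a1 and Pax5). Mast cell markers summed to 84 (1 of 7) and 2212 (6 of 7), and lymph node markers to 41 (0 of 6) and 6799 (4 of 6, without Madcam1 and Cr2). Neutrophil markers went the other way, from 4714 to 3383 with 5 of 10 detected on each array. So did natural killer cell markers, from 2675 to 1538 (3 of 8 on each array), with 2 at least 2-fold higher and 1 lower. Milk and mammary gland markers went from 2892 to 810 (1 of 5 on each array). Smooth muscle and pericyte markers rose from 234 (2 of 8) to 2423 (3 of 8), and platelet markers from 280 (1 of 6) to 759 (2 of 6). In sorted pools such as these, fewer cells of a type and less RNA per cell cannot be told apart.

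Differences are given as CCC minus PCC on the log2 scale of the normalized intensity, or as folds of it. Where only 1 array detected a gene, the fold is a lower bound, written as at least N-fold, against the lowest level detected on the other array. Among all 8270 genes, 6.32% were at least 2-fold higher on CCC and 3.66% at least 2-fold lower, by measured value or bound. Against these shares, secreted factors stood out in both directions, with 67 of 281 detected genes higher (23.8%) and 33 lower (11.7%). Receptors were mostly higher, with 66 of 234 (28.2%) against 10 lower (4.27%). For transcription factors the counts were 18 higher and 21 lower of 264 (6.82% and 7.95%), and for transporters 13 and 15 of 283 (4.59% and 5.30%), near the share of all genes in the higher direction. Genes in none of the classes reached 4.98% and 3.11%. A gene that CCC alone detected could be called only as higher. Among genes detected on both arrays, of which 4.95% were higher and 3.66% lower, 42 of 198 secreted factors were higher and 25 lower, 41 and 8 of 164 receptors, 9 and 20 of 213 transcription factors, and 10 and 15 of 230 transporters.

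The split between directions depended on how the arrays were scaled. The median over all genes measured on both arrays was -0.10, and it was 0.13 when the arrays were not normalized to each other. Without that normalization the share of called genes that were higher on CCC moved from 67.0% to 78.1% for secreted factors, from 46.2% to 69.4% for transcription factors and from 46.4% to 78.1% for transporters. For receptors it was 86.8% and 94.7%. The class medians were 0.11 for receptors (0.05 to 0.35 across scalings) and -0.27 for transcription factors (-0.33 to -0.03). Both kept their sign under every scaling tried, but the transcription factor median without normalization, -0.03, was barely below 0. The medians of secreted factors (-0.08) and transporters (-0.15) turned positive without normalization.

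**Figure D1:**
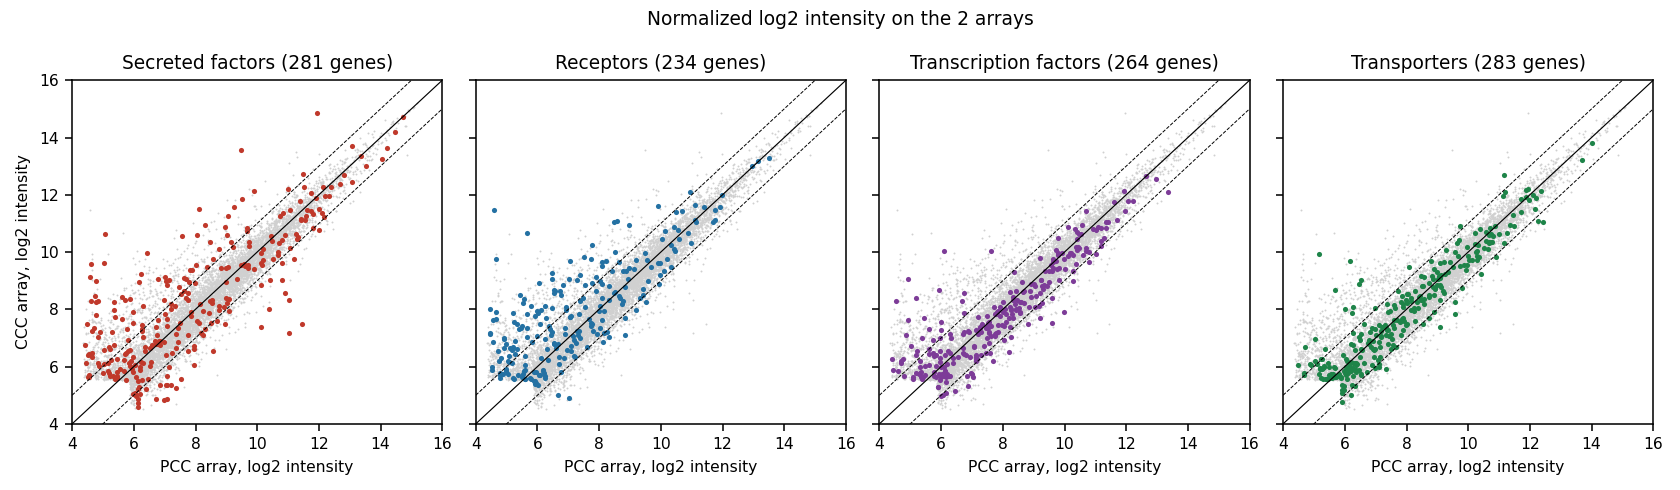
Normalized log2 intensity of the 8270 genes on the PCC array (x axis) and the CCC array (y axis), with the genes of each class in colour over all genes in grey. The solid line marks equal levels and the dashed lines 2-fold, and a gene that an array did not detect is drawn at its own value there. By value or bound, 66 receptors are at least 2-fold higher on CCC and 10 lower.

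Chemokines, the secreted proteins that direct the movement of leukocytes, were the secreted family with the largest share past 2-fold, 15 of 28 detected genes higher (53.6%) and 2 lower. Among the 18 detected on both arrays, 9 were higher and 2 lower. Ccl12 and Ccl8, which attract monocytes, were measured on both arrays. The intensity of Ccl12 was 272 on PCC and 3671 on CCC, a difference of 3.38 (10.4-fold), and its other probe gave 3.37. Ccl8 went from 259 to 1990 (5.93-fold), and Cxcl9, an interferon-induced chemokine for activated T cells, from 320 to 2492 (6.11-fold). These had clear signals on both arrays, so their folds do not rest on a dim PCC value.

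A further set of chemokines lay below detection on PCC. Ccl21a, the lymph node chemokine that binds Ccr7, had an intensity of 14.2 on PCC and 2039 on CCC, at least 27.2-fold higher, and 12511 on MCC. Its near-identical copies Ccl21b (974 on CCC, at least 13.5-fold) and Ccl21c (948 on CCC, at least 13.1-fold) may share signal with it, so they are not separate evidence. Ccl19, the other ligand of Ccr7, was at least 6.01-fold higher, and Cxcl13, the chemokine of B cell follicles, at least 9.57-fold. All of these were brighter on MCC than on CCC. Ccl21a, Ccl19 and Cxcl13 are themselves on the lymph node list, whose summed intensity is given above, and the part of lymph node cells in this result was not tested.

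The chemokine Cxcl1 ran against its family. Cxcl1, a neutrophil attractant that carcinoma cells make, had an intensity of 1483 on PCC, 308 on CCC and 60.1 on MCC, a difference of -2.36 (5.14-fold lower on CCC). Cxcl5, which acts on the same receptor, went from 125 to 61.2 (2.22-fold lower), a call lost without normalization and with a background offset of 50. The receptor Cxcr2 was detected on neither array.

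Cytokines and growth factors were called in both directions. Il11, a cytokine of the interleukin 6 family, had an intensity of 1252 on PCC and 192 on CCC, a difference of -2.76 (6.79-fold lower), and was not detected on MCC. Its signalling partner Il6st was detected on neither array. The interleukin and colony-stimulating factor family otherwise had 4 of 19 detected genes higher (21.1%). Csf1, the growth factor of macrophages, went from 217 to 805 (2.92-fold higher), Il1b from 229 to 813 (2.80-fold) and Osm from 107 to 380 (2.55-fold). Il16, a chemoattractant for T cells, was detected on CCC only, at 414, at least 5.91-fold higher.

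Igf2, a growth factor of fetal tissues that many tumours make again, was the lowest gene of all on CCC. Intensities were 3190 for PCC, 204 for CCC and 126 for MCC, a difference of -3.98 (15.8-fold lower on CCC). Its receptors differed less, with Igf1r at 280 and 166 (-0.97) and Igf2r at 1092 and 716 (-0.76). The other probe of Igf2r gave -1.24, past 2-fold. Igf1, the other ligand of Igf1r, was dim on PCC, at 39.0, and measured 0.68 higher. Among IGF binding proteins, Igfbp7 went from 3264 to 8824 (2.40-fold higher), and the bright Igfbp4 was at 12378 and 12874 (-0.03).

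Several further growth factors were lower on CCC. Wnt ligands are lipid-modified proteins that act at short range. Together with secreted regulators of Wnt signalling they had 3 of 10 detected genes lower (30.0%) and 1 higher. Wnt10b went from 388 to 97.8 (-2.03, 4.08-fold lower) and Wnt6 from 240 to 106 (-1.32, 2.50-fold lower). Rspo3, which enhances Wnt signalling, was detected on PCC only, at 114, at least 2.84-fold lower, and these 3 genes were not detected on MCC. Wnt7b, the brightest Wnt ligand detected, was at 4936 and 3299 (-0.75), with its other probe at -1.20, past 2-fold. The antagonist Dkk3 was the member called higher, at least 2.70-fold.

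Inhba, the subunit of activin A, went from 1535 to 635 (-1.41, 2.65-fold lower), and Ltbp4, which holds latent TGF-beta in the matrix, from 1954 to 966 (-1.17). Metrn, a secreted neurotrophic factor, went from 1971 to 627 (-1.79, 3.46-fold lower). Efnb1, a membrane-tied ligand of Eph receptors, went from 519 to 207 (-1.48), and its receptor Ephb4 from 273 to 130 (-1.25), a call lost without normalization. Angpt1, the ligand of the vascular receptor Tek, ran the other way, from 90.3 to 651 (2.27, 4.83-fold higher), with an intensity of 0.0 on MCC. Vegfa, the main growth factor of vessels, was at 1849 and 1597 (-0.38), with another probe at -1.19, and its relative Pgf was at least 2.50-fold lower, a call lost with an offset of 50.

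**Figure D2:**
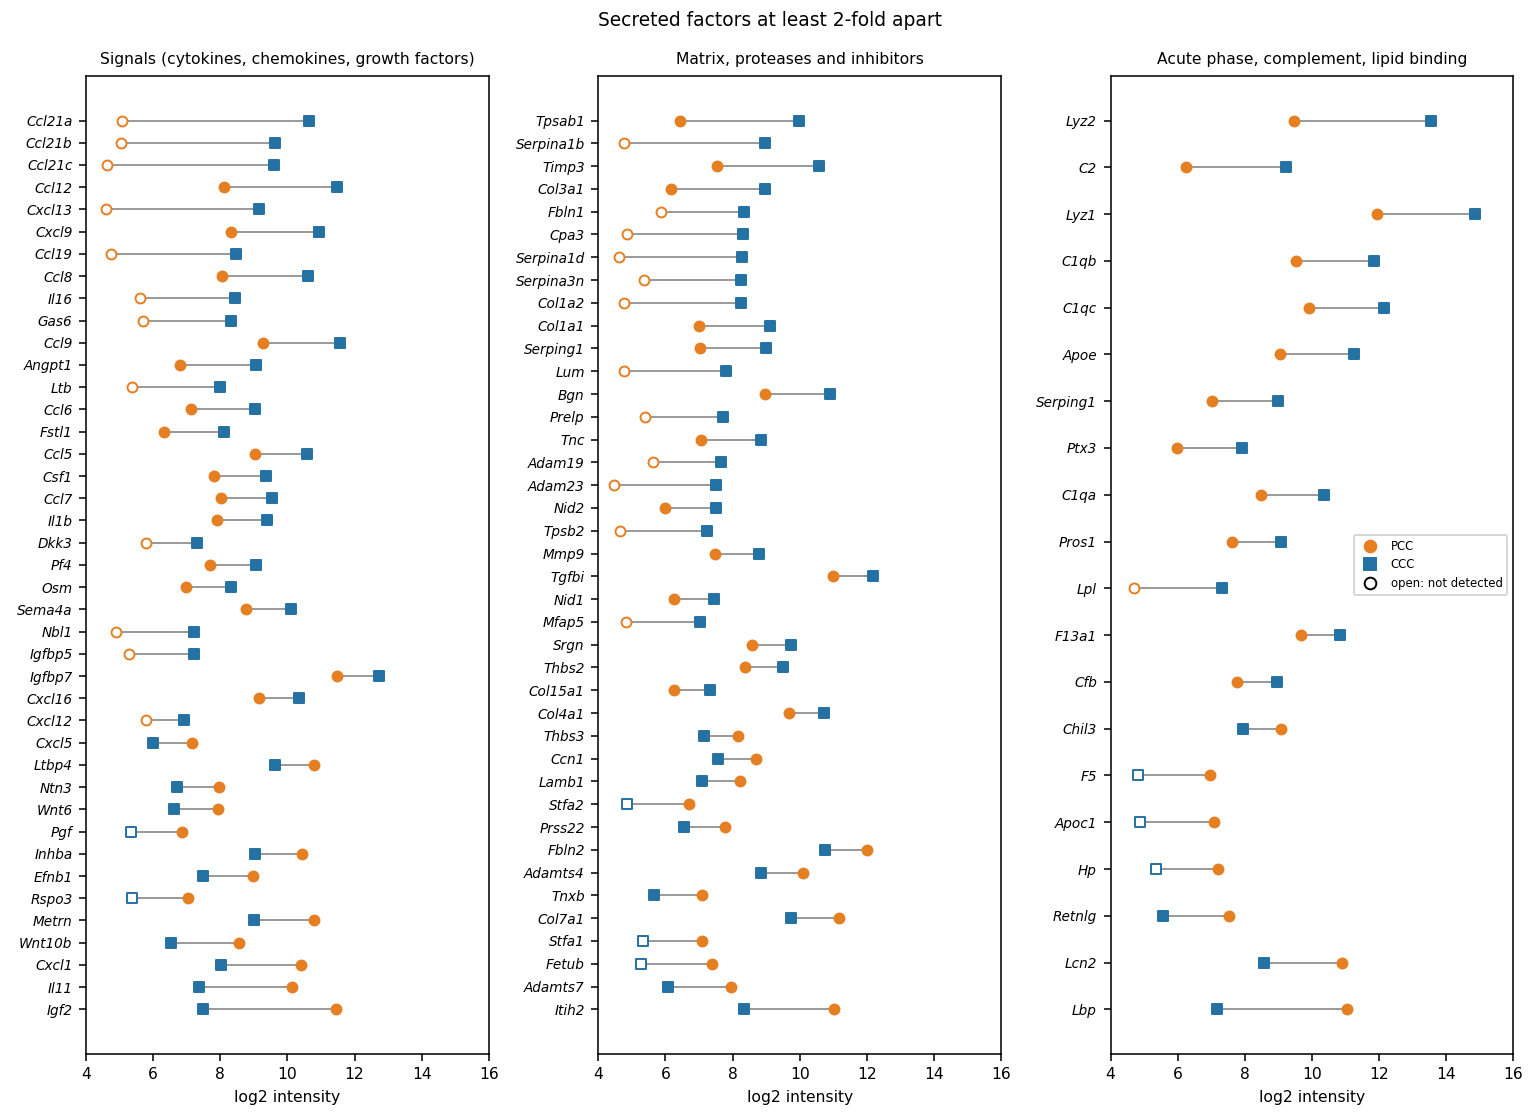
Normalized log2 intensity (x axis) of the secreted factors at least 2-fold apart, on PCC (orange circles) and CCC (blue squares), 1 array each, with open symbols where the array did not detect the gene. Signals stand on the left, with Igf2 and Il11 at the bottom (lowest on CCC relative to PCC) and Ccl21a at the top. Matrix proteins, proteases and inhibitors are in the middle, and acute phase, complement and lipid-binding proteins on the right. Serping1, a member of 2 families, is drawn in both of these panels.

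Acute phase and antimicrobial proteins, which tissues and neutrophils release during inflammation, had 5 of 17 detected genes lower (29.4%) and 3 higher (17.6%). Lbp, which presents bacterial lipopolysaccharide to its receptor, went from 2357 on PCC to 164 on CCC (-3.88, 14.7-fold lower) and 94.0 on MCC. Lcn2, which binds iron-carrying siderophores, went from 2134 to 458 (-2.33, 5.04-fold lower) and was at 734 on MCC. Haptoglobin (Hp), which binds free haemoglobin, was detected on PCC only, at 130, at least 3.15-fold lower. Retnlg, which neutrophils make and which is on the neutrophil list, went from 173 to 40.2 (-1.98). The neutrophil markers S100a8 and S100a9 were lower by 0.63 and 0.75 on the log2 scale, and the part of neutrophils in this result was not tested.

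The higher members of that family were the lysozymes and Ptx3. Lyz2, the myeloid lysozyme, was by the probe used the highest measured gene of all, with an intensity of 775 on PCC, 14862 on CCC and 2487 on MCC (4.08, 17.0-fold). A different probe of Lyz2 gave 3.48 and the mean over its probes 3.04, below Satb1 at 3.95, and cross-hybridisation with the close copy Lyz1 (4522 and 34178) was not tested. Complement and coagulation proteins had 8 of 16 detected genes higher and 1 lower. The chains of C1q, the complex that starts the classical pathway, were all higher, with C1qb at 800 and 4645 (4.99-fold), C1qc at 1053 and 5806 (4.72-fold) and C1qa at 364 and 1632 (3.69-fold). C2, the next protease of that pathway, went from 55.9 to 724 (7.85-fold), and Serping1, which inhibits C1, from 113 to 619 (3.89-fold). Apoe, the lipid carrier of macrophages and liver, went from 560 to 3058 (4.55-fold). Lyz2 and the C1q genes are macrophage markers of the list summed above, of which 9 of 10 were at least 2-fold higher, and the part of macrophages in these values was not tested.

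The promoters of 3 of the lowest secreted factors are shown to print, for named genes, the letters that motifs of the bZIP and NF-kappaB families match, since genes of those families are described further on. Each is the 300 bases from 250 before the start site, from the RefSeq promoter table of build GRCm38.p6, 5′ to 3′ on the strand of the gene. Capitals mark motif matches on either strand.
Il11 promoter: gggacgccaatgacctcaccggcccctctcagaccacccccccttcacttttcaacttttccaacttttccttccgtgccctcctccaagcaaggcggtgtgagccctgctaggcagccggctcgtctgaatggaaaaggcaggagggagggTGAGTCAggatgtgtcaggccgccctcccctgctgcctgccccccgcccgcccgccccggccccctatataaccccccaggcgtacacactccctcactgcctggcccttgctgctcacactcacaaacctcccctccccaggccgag
Cxcl1 promoter: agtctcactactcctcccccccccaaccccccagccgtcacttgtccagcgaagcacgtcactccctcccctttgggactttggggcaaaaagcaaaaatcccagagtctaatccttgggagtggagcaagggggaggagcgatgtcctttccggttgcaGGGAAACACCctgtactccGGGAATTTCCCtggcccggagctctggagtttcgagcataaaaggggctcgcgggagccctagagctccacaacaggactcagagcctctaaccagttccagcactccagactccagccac
Lcn2 promoter: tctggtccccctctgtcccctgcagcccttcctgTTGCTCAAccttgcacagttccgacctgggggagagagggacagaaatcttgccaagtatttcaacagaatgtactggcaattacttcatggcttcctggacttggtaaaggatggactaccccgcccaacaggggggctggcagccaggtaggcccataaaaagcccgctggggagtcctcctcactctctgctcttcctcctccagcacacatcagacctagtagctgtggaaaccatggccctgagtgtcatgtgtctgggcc
The Il11 window is chr7:4778092-4778391 on the minus strand, and its capitals are an AP-1 motif (TGANTCA) 98 bases before the start site. It is 1 of 2 windows the table gives for Il11, picked by its number of motif matches, so the motif in it is no neutral draw. The Cxcl1 window is chr5:90890995-90891294 on the plus strand, with NF-kappaB motifs (GGGA and CC with any 4 bases between) starting 90, 71 and 70 bases before the start site, the last 2 overlapping. The Lcn2 window is chr2:32387690-32387989 on the minus strand, with a C/EBP motif (TTNNGCAA) 216 bases before the start site. Over all 32851 windows the shares holding each motif at least once were 7.8% for AP-1, 20.7% for NF-kappaB and 10.8% for C/EBP. The 33 windows of 25 secreted factors called lower held them in 9.1%, 36.4% and 15.2%, and the 61 windows of 48 called higher in 9.8%, 36.1% and 16.4%. Of the 8714 windows of all detected genes, 473 held AP-1 (5.4%), 2263 NF-kappaB and 757 C/EBP (8.7%). A match describes these letters only and says nothing of binding.

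Matrix genes were called in both directions. Of 18 detected collagens 5 were higher (27.8%) and 1 lower. The fibrillar collagen Col3a1 went from 51.8 to 608 (6.99-fold), Col1a1 from 110 to 673 (4.32-fold), and Col1a2 was detected on CCC only, at 364, at least 5.20-fold higher. Col7a1, which anchors epithelium to the tissue beneath, was lower, from 2615 to 1056 (-1.43, 2.70-fold), and 178 on MCC. Bright collagens such as Col6a1 (3523 and 3594) and Col16a1 (4125 and 3236), named after their values were seen, lay within 2-fold.

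Among 33 other matrix proteins detected, 11 were higher (33.3%) and 5 lower. Bgn, a small leucine-rich proteoglycan, went from 519 to 2420 (3.80-fold higher), and Tgfbi, a TGF-beta induced adhesion protein, from 2306 to 6093 (2.29-fold), with a further probe at 1.15. Lum and Fbln1, of connective tissue, were detected on CCC only, at least 3.81-fold and 5.54-fold higher. Fbln2 was lower, from 4662 to 2232 (-1.24, 2.36-fold), with a further probe at -1.22. Col1a1, Col1a2, Col3a1 and Lum are fibroblast markers, a list that summed to 12998 on PCC (6 of 10 detected) and 14769 on CCC (9 of 10), with Postn on neither. Its brightest members, Dcn and Pdgfra, were at 8451 and 8475 (-0.14, with another probe at 0.35) and at 3999 and 2820 (-0.65), and the part of fibroblasts in the matrix values was not tested.

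Proteases had 6 of 35 detected genes higher and 3 lower. The tryptase Tpsab1 went from 66.1 to 1250 (3.55, 11.7-fold higher), and Cpa3 and Tpsb2, further mast cell proteases, were detected on CCC only, at least 5.34-fold and 2.58-fold higher. These are the mast cell markers summed above, Fcer1a was detected on CCC only and Ms4a2 on neither array, and the part of mast cells was not tested. Mmp9, a gelatinase, went from 165 to 534 (2.50-fold higher). Adamts7 and Adamts4, which cut cartilage and matrix proteins, were lower, from 244 to 65.1 (-1.90) and from 1224 to 553 (-1.26). The bright matrix proteases Mmp14 (5904 and 5052, -0.38) and Mmp3 (5205 and 2992, -0.96), named after their values were seen, stayed within 2-fold.

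Protease inhibitors had 5 of 25 detected genes higher and 4 lower. Timp3, a matrix-bound inhibitor of metalloproteases, went from 175 to 1921 (3.01, 8.08-fold higher). Serpina1b and Serpina1d, near-identical genes of alpha-1 antitrypsin that the liver makes, were detected on CCC only, at least 8.57-fold and 5.33-fold higher, and may share signal. Itih2, a serum protein that binds hyaluronan, went from 2339 on PCC to 382 on CCC and 40.8 on MCC (-2.69, 6.47-fold lower). Fetub, a relative of the plasma protein fetuin, was detected on PCC only, at 153, at least 3.59-fold lower.

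Receptors of the immune system held many of the receptor calls. Of 9 detected chemoattractant receptors 6 were higher (66.7%) and 2 lower, and of 9 Fc receptors, which bind antibodies, 5 were higher (55.6%) and 0 lower. Among members detected on both arrays, 3 of 4 and 3 of 5 were higher and 0 lower. Cx3cr1, the fractalkine receptor of monocytes, went from 116 to 1018 (2.63, 6.17-fold higher). Cxcr4, the receptor of Cxcl12 that guides many cells, carcinoma cells included, went from 87.1 to 435 (1.76, 3.40-fold), and Cxcl12 itself was detected on CCC only, at least 2.06-fold higher. Ackr3, the other receptor of Cxcl12, which takes it up, ran against it, detected on PCC only at 112, at least 2.79-fold lower. Ccr6 (at least 4.08-fold higher), Ccr7 (at least 2.37-fold) and Cxcr5 (at least 2.17-fold), all of lymphocytes, were detected on CCC only. The calls of Cxcl12, Ccr7 and Cxcr5 were lost with an offset of 50, and those of Cxcl12 and Cxcr5 also with no background correction and with the mean over probes (0.40 and 0.45). The summed macrophage, T cell and B cell markers given above were higher on the same array, and their part in the values of these and the following immune receptors was not tested.

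The Fc receptors Fcgr3 and Fcgr2b had clear signals on both arrays, at 1054 and 3993 (3.25-fold) and at 527 and 2506 (3.88-fold). Fcmr, the receptor of immunoglobulin M on B cells, was detected on CCC only, at 1068, at least 14.7-fold higher. Scavenger and C-type lectin receptors, which take up debris and bind sugars, had 10 of 25 genes higher (40.0%) and 0 lower. Scarf2, of the scavenger receptors, was below detection on PCC at 31.3 and at 2055 on CCC, at least 27.4-fold higher, and Mrc1, the mannose receptor of macrophages, went from 397 to 2774 (2.50, 5.65-fold). Pattern recognition receptors had 3 of 14 higher, with Tlr13 at 94.8 and 561 (4.05-fold) and Tlr7 at 44.5 and 274 (3.59-fold).

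Cytokine receptors had 8 of 25 detected genes higher (32.0%) and 0 lower. Il7r, a receptor chain of lymphocytes, went from 68.4 to 647 (2.59, 6.01-fold), and Tslp, a cytokine of epithelium that signals through Il7r, was bright on both arrays at 2870 and 1844 (-0.80). Il27ra was detected on CCC only, at least 5.56-fold higher. Of the TNF receptor superfamily, Cd27 went from 68.3 to 756 (2.81, 7.02-fold higher) and Cd40 was at least 5.08-fold higher, both lymphocyte receptors, and 4 of 22 members were higher in all. Tnfrsf11b, the decoy receptor osteoprotegerin, was lower, from 1070 to 573 (-1.04), a call lost without normalization and with an offset of 50. The same macrophage, T cell and B cell sums stand beside these values.

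G protein-coupled receptors had 5 of 16 genes higher in the lipid, nucleotide and amine families and 10 of 35 among peptide and other receptors, against 0 and 3 lower. The nucleotide receptors P2ry13 and P2ry6 went from 46.3 to 594 (7.39-fold) and from 366 to 2669 (5.85-fold). Adgre1, the macrophage antigen F4/80, went from 207 to 1506 (5.58-fold). Gprc5b was the lowest receptor measured, from 483 to 158 (-1.74, 3.35-fold lower), followed by Ramp1, a partner of the calcitonin receptor-like receptor, from 802 to 362 (-1.28), and the Wnt receptor Fzd2, from 320 to 149 (-1.28). Ramp2, the relative of Ramp1 that endothelium uses for adrenomedullin, was higher, from 142 to 631 (1.73). Adgre1 is itself on the macrophage list, whose part in the values of these receptors was not tested.

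**Figure D3:**
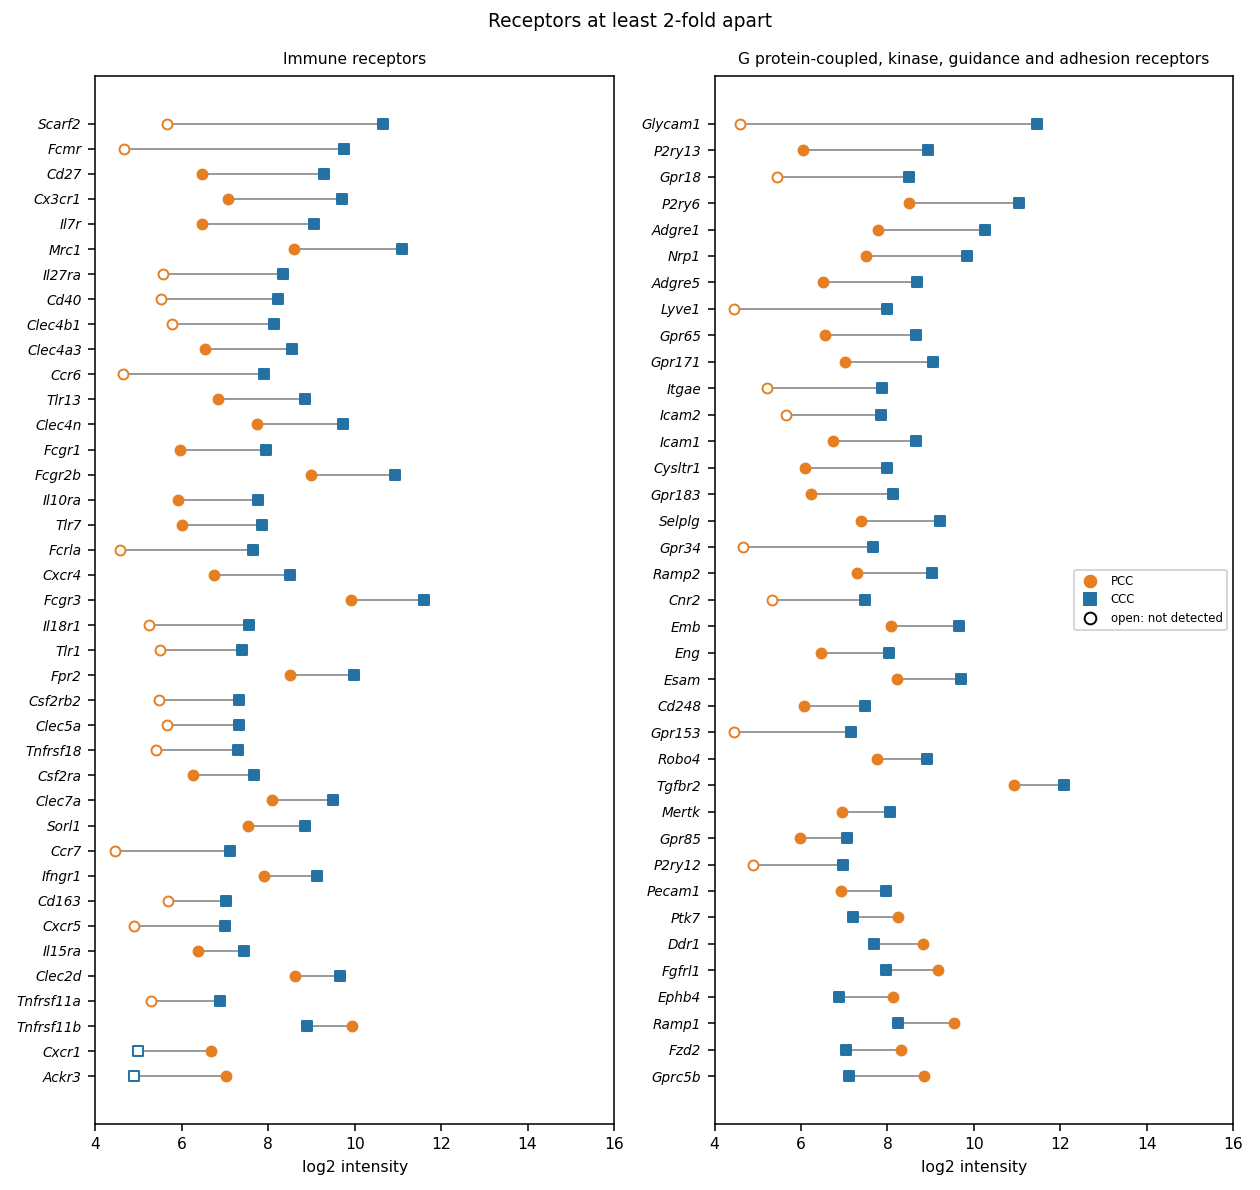
Normalized log2 intensity (x axis) of the receptors at least 2-fold apart, on PCC (orange circles) and CCC (blue squares), 1 array each, with open symbols where the array did not detect the gene. Immune receptors are on the left and the other families on the right. Lower receptors stand at the bottom of each panel, from Ackr3 and Gprc5b upward, and 66 genes are higher and 10 lower on CCC.

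Among receptor tyrosine kinases, 3 of 17 detected genes were lower (17.6%) and 1 higher, and the 12 measured on both arrays had a median of -0.70, between -0.82 and -0.53 across scalings. Fgfrl1, an FGF receptor that lacks the kinase, went from 613 to 297 (-1.21), and the collagen receptor Ddr1 from 477 to 242 (-1.15), a call lost without normalization. The call of the third, Ptk7, was lost without normalization, with no background correction, with an offset of 50 and with the authors' scaled values. Axl, the brightest kinase receptor detected, was at 10888 and 11499 (0.03), while its relative Mertk, used by macrophages to clear dead cells, went from 104 to 320 (1.14, lost with an offset of 50) and their ligand Gas6 was at least 5.39-fold higher. Egfr was detected on CCC only, at 112, at least 1.74-fold higher, and its ligand Hbegf was at 565 and 391 (-0.71).

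Receptors of TGF-beta had 2 of 9 higher and 0 lower. Tgfbr2, which binds the ligand, went from 2173 to 5610 (1.15, 2.22-fold), a call lost when probes were averaged. Its partner Tgfbr1 was at 2489 and 2804 (0.00), and the ligand Tgfb1 at 301 and 290 (-0.30). Eng, a coreceptor of endothelium, went from 68.8 to 309 (2.94-fold).

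Integrins, which hold cells to the matrix, had 1 of 14 detected members called, Itgae of lymphocytes inside epithelium, at least 3.97-fold higher. The laminin-binding chains that epithelium uses lay within 2-fold, with Itga3 at 3918 and 3631 (-0.26), Itga6 at 105 and 102 (-0.37) and Itgb4 at 1838 and 3474 (0.72). These chains were named after their values were seen. Other adhesion receptors had 9 of 22 higher (40.9%) and 0 lower. That list holds Glycam1, a secreted mucin rather than a receptor, which carries ligands of L-selectin in lymph node vessels and also occurs in milk. It was at -2.8 on PCC, 3585 on CCC and 16726 on MCC, at least 47.7-fold higher on CCC, while the milk protein Csn3 ran the other way, from 2868 to 792. Icam1, bound by leukocyte integrins, went from 85.4 to 483 (3.79-fold), Lyve1 of lymphatic vessels was at least 4.35-fold higher, and Nrp1, a coreceptor of Vegfa and semaphorins, went from 169 to 1129 (2.33, 5.02-fold). Endothelial markers summed to 1799 on PCC (7 of 11 detected) and 4468 on CCC (10 of 11, without Kdr), and their part in these values was not tested.

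Of 66 ligand and receptor pairs from textbook knowledge, 23 had both partners detected on at least 1 array. In 3 pairs both partners were at least 2-fold higher on CCC, Cxcl12 with Cxcr4, Ccl21a with Ccr7 and Gas6 with Mertk, and in 1 pair both were lower, Efnb1 with Ephb4. The ligands of the 3 higher pairs were detected on CCC only. With an offset of 50 each of these pairs lost the call of a partner, Cxcl12 (0.74), Ccr7 (0.90) and Mertk (0.95), and without normalization Ephb4 (-0.98) lost its own. Igf2 with Igf1r and with Igf2r were the 2 pairs with the ligand lower and the receptor within 2-fold for the probe used, the other probe of Igf2r being past 2-fold (-1.24).

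Of 8 detected transcription factors of the lymphoid and myeloid lineages, 6 were detected on CCC only and could therefore only be higher, and 4 of these passed 2-fold. The 2 measured on both arrays had a median of -0.08 and neither was called. Pou2af1, the B cell coactivator, had an intensity of 9.5 on PCC and 647 on CCC, at least 9.03-fold higher. Ciita, the master regulator of MHC class II genes, was at least 5.66-fold higher, the T cell factor Bcl11b at least 5.34-fold and Ikzf1 at least 3.34-fold. Satb1, a chromatin organiser of T cells counted with the homeobox factors, was the highest transcription factor measured, at 48.2 on PCC, 1300 on CCC and 4239 on MCC (3.95, 15.5-fold). Lmo2, a LIM cofactor of blood and vessel cells placed in the same list, went from 184 to 1286 (2.40, 5.29-fold), and Mef2c from 41.2 to 490 (2.73, 6.65-fold). The summed T and B cell markers given above were higher on the same array, and their part in these values was not tested.

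The bZIP factors, dimers that bind DNA through a basic stretch beside a leucine zipper, had 7 of 30 detected members at least 2-fold lower (23.3%) and 1 higher. Below 0 were 23 of the 30, and 4318 of the 7292 genes measured on both arrays. All 30 were detected on both arrays, and the median was -0.29, between -0.35 and -0.06 across scalings. Cebpb, a factor of inflammatory and mammary gene programmes, was the brightest of the family, at 12245 on PCC, 5608 on CCC and 828 on MCC (-1.25, 2.39-fold lower). Atf3, induced by stress, went from 291 to 96.3 (-1.68, 3.21-fold lower) and Fosb from 193 to 71.4 (-1.50, 2.83-fold lower). Junb (2322 and 1216, -1.07), Jund (111 and 48.6, -1.27), Maff (179 and 95.0, -1.09) and Ddit3 (609 and 332, -1.04) were called as well, and these 4 calls were lost without normalization. Those of Jund, Maff and Ddit3 were also lost with an offset of 50. The Maff call was lost with no background correction too, and the Ddit3 call with the authors' scaled values.

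Not all AP-1 genes were lower by that much. Fos was at 752 and 545 (-0.62) and Jun at 549 and 539 (-0.23), and Egr1, another early response gene, at 910 and 1004 (-0.04, and 0.14 without normalization). The 10 handling-responsive markers, which respond to dissociation and sorting, summed to 12773 on PCC and 9384 on CCC with 8 detected on each array, 4 of them at least 2-fold lower, and the part of handling was not tested. Atf4, the factor upstream of Atf3 and Ddit3 in the response to amino acid lack, was at 391 and 281 (-0.68), and Xbp1, of the unfolded protein response, at 4475 and 5804 (0.21). Atf4 and Xbp1 were named after their values were seen.

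The Atf3 promoter is shown for the motifs of the families just named, with the same source and marking as above.
Atf3 promoter: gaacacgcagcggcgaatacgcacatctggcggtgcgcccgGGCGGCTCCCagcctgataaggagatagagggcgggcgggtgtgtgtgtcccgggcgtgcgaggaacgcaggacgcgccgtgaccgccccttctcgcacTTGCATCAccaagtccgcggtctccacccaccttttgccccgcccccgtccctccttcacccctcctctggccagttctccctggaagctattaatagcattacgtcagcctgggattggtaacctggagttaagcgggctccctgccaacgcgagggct
This window is chr1:191183284-191183583 on the minus strand. Its capitals are an NF-kappaB motif 209 bases and a combined C/EBP and ATF element, CARE (TGATGNAA), 110 bases before the start site. CARE was found in 4.0% of all windows and in 2.3% of the windows of all detected genes. Of the 22 windows of transcription factors called lower, 1 held it (4.5%). That is the Atf3 window printed here, so the share cannot be compared with the others.

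Homeobox factors, many of which pattern the embryo, had 5 of 43 detected members higher (11.6%) and 3 lower (6.98%). Hhex, a homeobox factor of blood and liver, was among the higher ones, from 44.5 to 220 (1.55). Hlx went from 1102 to 284 (-2.07, 4.19-fold lower), Dlx1 from 625 to 248 (-1.49) and Otx1 from 471 to 206 (-1.34), and neither Dlx1 nor Otx1 was detected on MCC. Of other families, Sox9, a factor of mammary progenitors, went from 1359 to 623 (-1.26), Etv4 of the ETS family from 832 to 394 (-1.20), and Klf4 from 1951 to 981 (-1.14), a call lost without normalization and with the mean over probes (-0.85). Zbtb2, a zinc finger repressor, went from 838 to 214 (-2.07, 4.20-fold lower). Myc was dim on CCC, at 93.8 and 44.3 (-1.17), and its call was lost under 3 alternatives.

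None of 14 forkhead factors or 16 nuclear receptors reached 2-fold, counts near the 6.32% higher and 3.66% lower of all genes. Among forkhead factors, values ran from Foxk1 at -0.92 (123 and 73.8) to Foxj1 at 0.01 (43.2 and 61.1), and 12 of 13 measured were below 0 under the scaling used here. Nuclear receptors ran from Nr1d1 at -0.64 (220 and 168) to Nr1h3 at 0.35 (41.6 and 79.3). The STAT, IRF, NF-kappaB and NFAT factors had 2 of 19 higher and 0 lower. Irf5, of macrophages and B cells, went from 83.0 to 369 (3.01-fold) and Stat4, of lymphocytes, was detected on CCC only, at least 2.31-fold higher (lost with an offset of 50). Of factors of the epithelial-mesenchymal transition, Zeb1 was detected on CCC only, at 181, at least 2.67-fold higher, and Twist1 was at 43.4 and 177 (1.29), lost with an offset of 50. Both were dim or undetected on PCC. The family of SNAIL, EGR, PRDM and other zinc finger factors had 0 of 29 detected members higher and 3 lower (10.3%). The part of other cell types in these values was not tested.

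Transporters had 13 genes called higher and 15 lower, and carriers of amino acids, glucose, fatty acids and phosphate were among the lower ones. Slc7a11, which brings in cystine for glutathione, went from 819 on PCC to 271 on CCC and 62.8 on MCC (-1.72, 3.29-fold lower). Of 23 amino acid carriers detected, 3 were lower and 0 higher, the others being the neutral amino acid exchanger Slc1a4 (976 and 520, -1.05) and the arginine and lysine carrier Slc7a3 (121 and 59.7, -1.15), both lost without normalization and with an offset of 50. The Slc7a3 call was also lost with no background correction. The leucine exchanger Slc7a5 (3304 and 2473, -0.59) and its partner chain Slc3a2 (105 and 83.7, -0.60) lay within 2-fold, and were named after their values were seen.

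The Slc7a11 promoter is shown as that of the lowest amino acid carrier measured, with source and marking as above.
Slc7a11 promoter: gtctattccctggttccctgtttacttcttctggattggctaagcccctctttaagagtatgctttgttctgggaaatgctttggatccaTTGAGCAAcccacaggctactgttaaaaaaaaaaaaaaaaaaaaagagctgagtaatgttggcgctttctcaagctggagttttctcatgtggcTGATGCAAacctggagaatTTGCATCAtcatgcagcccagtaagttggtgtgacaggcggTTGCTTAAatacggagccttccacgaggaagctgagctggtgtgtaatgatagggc
This window is chr3:50443564-50443863 on the minus strand. It held CARE motifs (TGATGNAA) starting 66 and 47 bases and C/EBP motifs (TTNNGCAA) starting 160 and 6 bases before the start site. Of the 20 windows of 13 transporters called lower, 4 held CARE, which 4.0% of all windows and 2.3% of the windows of all detected genes held, a count too small to compare.

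Slc2a1, the main glucose carrier, went from 6453 to 2668 (-1.41, 2.65-fold lower) and was at 349 on MCC, whereas Slc2a6, a carrier of leukocytes and spleen, went from 68.4 to 573 (2.42, 5.36-fold higher). Slco2a1, which takes up prostaglandins, was bright at 5486 and 2735 (-1.18, 2.26-fold lower), and its relative Slco2b1 was detected on CCC only, at 1217, at least 16.7-fold higher. The fatty acid transport protein Slc27a1 went from 575 to 193 (-1.71, 3.27-fold lower) and the phosphate carrier Slc20a1 from 832 to 366 (-1.31). The sugar and monocarboxylate carriers had 2 of 31 detected genes higher (6.45%) and 1 lower (3.23%). The organic ion, nucleoside, vitamin, peptide and lipid carriers had 2 of 41 higher (4.88%) and 2 lower (4.88%). These shares lie near the 6.32% and 3.66% of all genes. The opposite calls of Slc2a1 and Slc2a6, and of Slco2a1 and Slco2b1, are thus single pairs and not a family result.

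Among metal carriers, Slc11a1, the iron and manganese carrier of macrophage phagosomes, went from 916 to 2477 (1.19, 2.29-fold higher) and Slc39a11, a zinc carrier, from 263 to 864 (1.41). Slc25a5, which exchanges ADP and ATP across the inner mitochondrial membrane, was the 1 member called of 25 detected mitochondrial carriers, from 2585 to 8505 (1.54, 2.91-fold higher). None of 17 detected subunits of the vacuolar proton pump reached 2-fold, from Atp6v1d at -0.34 (337 and 310) to Atp6v0e at 0.83 (2524 and 5064). The ABC transporters held 1 call of 22, Abcb6 at 108 and 59.4 (-1.02), lost without normalization and with an offset of 50.

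Of the pumps and channels, Atp2a3, the calcium pump of lymphocytes and platelets, was highest, at 52.3 on PCC, 1014 on CCC and 3093 on MCC (3.52, 11.4-fold). The proton channel Hvcn1, of leukocytes, was at least 7.01-fold higher, and the potassium channels Kcnk6 and Kcnk13 went from 72.5 to 631 (5.59-fold) and from 44.2 to 307 (4.07-fold). On the lower side were Itpr3, a calcium release channel of the endoplasmic reticulum, at 1506 and 734 (-1.17), and the potassium channel Kcnh2, at 147 and 57.9 (-1.41), with its other probe within 2-fold (-0.94).

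**Figure D4:**
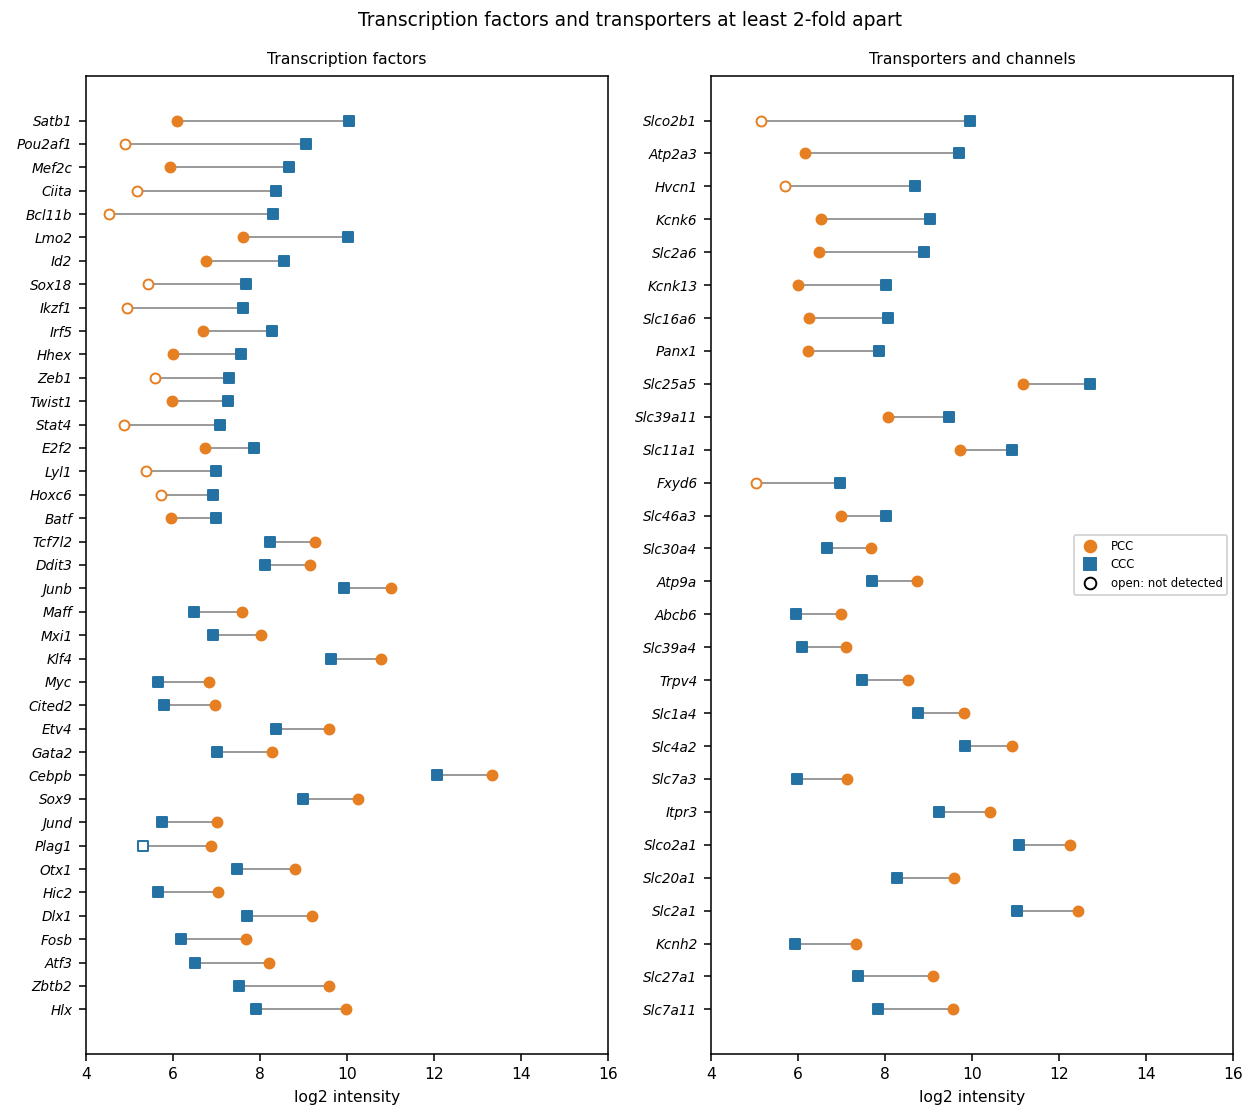
Normalized log2 intensity (x axis) of the transcription factors (left) and the transporters and channels (right) at least 2-fold apart, on PCC (orange circles) and CCC (blue squares), 1 array each, with open symbols where the array did not detect the gene. The uppermost genes, Satb1 and Slco2b1, lie near or below the detection limit on PCC. Of the lower genes, Cebpb and Slc2a1 have clear signals on both arrays, while others, such as Myc and Kcnh2, are dim on CCC.

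Detection of the called genes elsewhere is given as counts, with no test. The share of all called genes that MCC detected was not counted, so the MCC counts of a class cannot be read as high or low. Of 67 higher secreted factors 25 were detected on CCC only and 62 were also detected on MCC, and of 33 lower ones 8 were detected on PCC only and 16 on MCC. Receptors gave 25 of 66 on CCC only with 57 on MCC, and 2 of 10 on PCC only with 7 on MCC. For transcription factors 9 of the 18 higher were detected on CCC only and 18 on MCC, and 1 of the 21 lower on PCC only and 14 on MCC. For transporters the counts were 3 of 13 and 12, and 0 of 15 and 12. Over all genes detected, 776 were on CCC only and 202 on PCC only. Of all 523 genes called higher, 361 were detected on both PCC and CCC, and 342 were called among genes detected on all 3 arrays. Of all 303 called lower, these counts were 267 and 211. For secreted factors they were 42 and 38 of 67 higher, and 25 and 13 of 33 lower. Genes of the cell type marker lists themselves made up 16 of the 67 higher secreted factors and 7 of the 66 higher receptors. The matching share over all called genes was not counted. Among the called transcription factors, Atf3, Fosb and Junb are on the handling-responsive list. The transcription factor on the cell type lists is Pax5, detected on neither PCC nor CCC, so those lists could not mark a called factor.

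**Figure D5:**
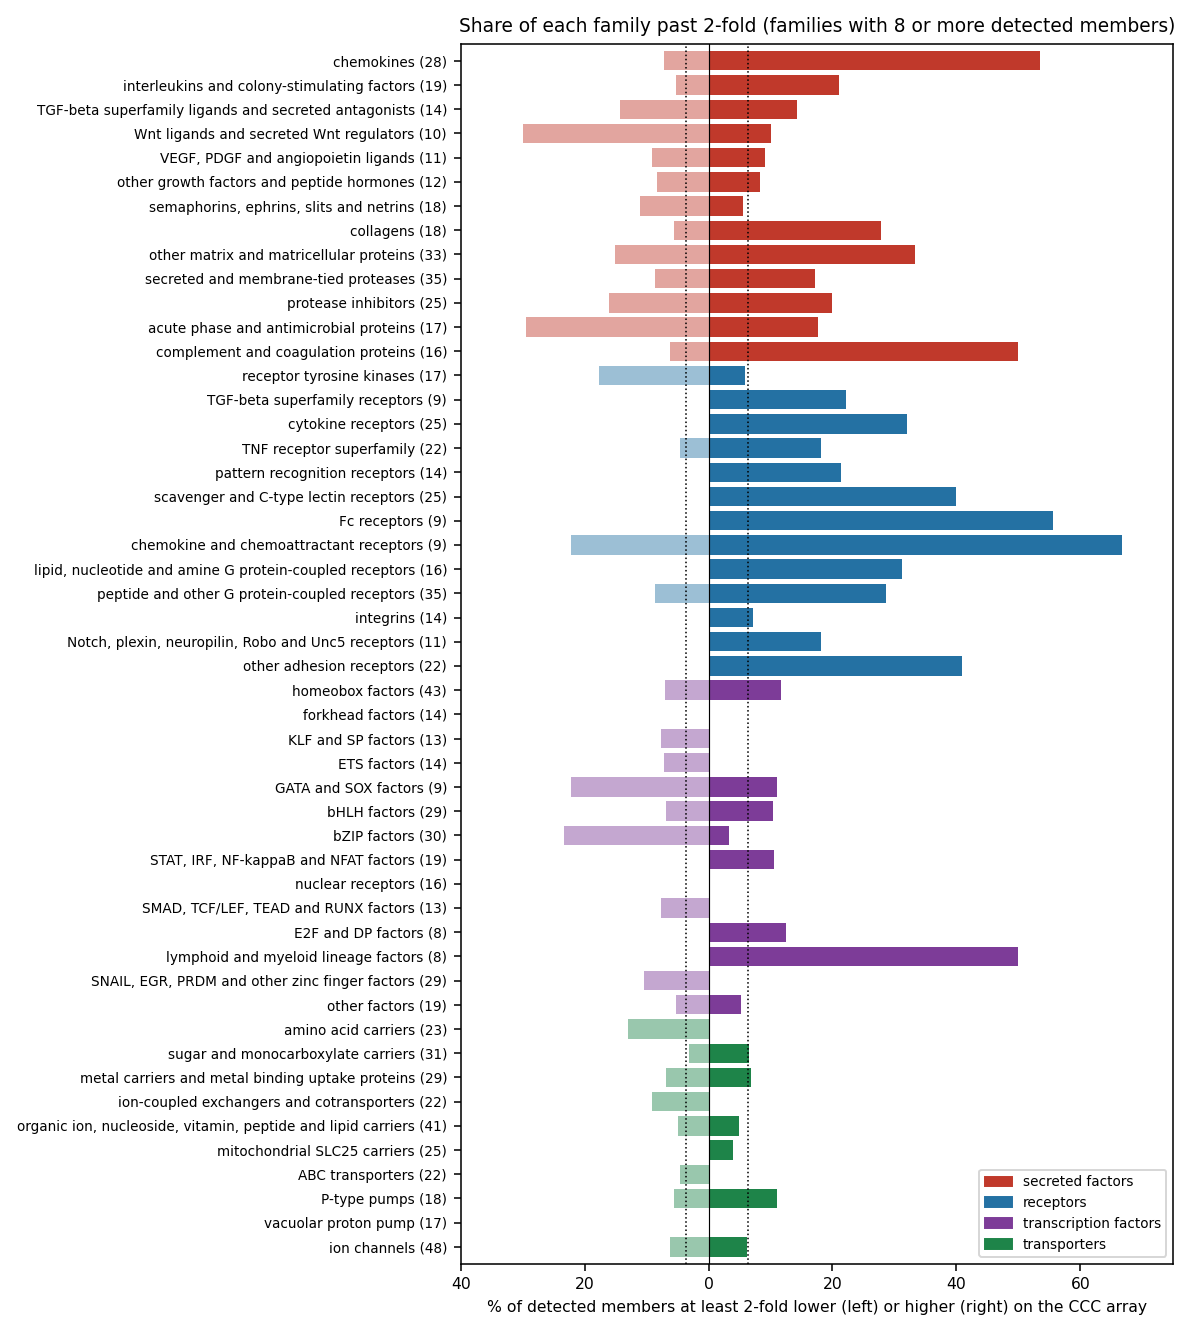
Share of detected members at least 2-fold lower (left of 0, pale) or higher (right of 0) on CCC than on PCC, in percent, for each family with 8 or more detected members, the number of which stands in brackets. Dotted lines mark the shares of all genes, 3.66% lower and 6.32% higher. Chemoattractant receptors (66.7%), Fc receptors (55.6%) and chemokines (53.6%) reach furthest right, and Wnt ligands and regulators (30.0%) and acute phase proteins (29.4%) furthest left. The shares include members detected on CCC only, which could be called only as higher. Among members detected on both arrays, 3 of 4 chemoattractant receptors, 3 of 5 Fc receptors and 9 of 18 chemokines were higher. The chemokines count Ccl21a, Ccl21b and Ccl21c separately.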

How the data were processed

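RNA of sorted cells was made into biotin-labelled cRNA and hybridised to Illumina Mouse Ref8 BeadChips, per the labels. Probe intensities came from the authors' use of GenomeStudio, which the submitters' processing notes name without a version, and between 24.0% and 28.3% of the deposited intensities per array lie below 0. Per the file headers, a detection p-value per probe and array was deposited beside them. Another table by the authors, used as an alternative, holds intensities too, as a straight line of the deposited ones on each array (slopes 0.926 for PCC, 0.865 for CCC and 1.53 for MCC, column medians 42.9, 32.0 and 35.1). Its scale is linear, its genes are not centred, its direction is that of the deposited values, and its between-array method is not stated.

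Of 25697 probes, 23978 had 1 gene symbol and 1719 none in the platform annotation, with several on no probe. Symbols were updated by gene ID, with 23962 probes matched to RefSeq (GRCm38.p6). In R 4.3.3, limma 3.58.1 (neqc) corrected background, taking the level of negative control probes from the detection p-values, added an offset of 16, quantile-normalized all 3 arrays and took log2. Each gene was taken from its detected probe with the highest mean log2 intensity, and 2.30% of 1784 genes with several measured probes had probes over 1 apart. With 1 array per group the spread between replicates is unknown, and the only internal spread, the SD between probes of a gene, was 0.257 on the log2 scale. A lower bound used the higher of the lowest detected log2 level on the dim array (5.88 on PCC, 5.54 on CCC) and the probe's own value.

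Counting was tested on simulated arrays of 9247 genes for CCC minus PCC. All genes set 4-fold apart were called (100.0%), those set 2-fold higher in 36.0% and 2-fold lower in 44.0%, and 0.03% of 9047 unchanged genes. No replicate was there to set the simulated noise. These shares therefore describe the simulation and are not an error rate for the real arrays or their dim genes.

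The members, families, marker lists and pairs were chosen with earlier results of these data known. Genes were named by rule: in each family up to 8 members of largest size in each direction past 2-fold, or else its highest and lowest measured member, besides pairs and markers. Promoter windows are those of the lowest measured member with a table entry in 5 families. Where such a gene had several windows, the one with the most motif matches was printed. Counting used Python 3.11.15, pandas 2.3.3 and numpy 2.4.6, and plots used matplotlib 3.10.9. Alternatives changed scaling, background, offset, detection filter, probe summary and value table.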

Additional observations from a re-analysis of the deposited data

How the results depend on the processing

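Counts at the 2-fold size kept within 1.5 times of the reported value in 92 recalculations and moved further in 18. No named difference of a called gene reversed its sign. The medians of secreted factors and transporters did so without normalization. There the share of called genes that were higher moved from 46.2% to 69.4% for transcription factors and from 46.4% to 78.1% for transporters. Without normalization between arrays, 815 genes were higher and 140 lower, with 5 receptors lower, 11 transcription factors lower, 25 transporters higher and 7 lower. A background offset of 50 gave 164 genes lower, among them 12 transcription factors and 8 transporters. Among genes detected on both arrays, 42 secreted factors, 41 receptors and 9 transcription factors were higher. Among genes detected on all 3 arrays, 342 genes were higher, with 38 secreted factors, 37 receptors and 9 transcription factors, and 13 secreted factors were lower. With no filter on dim probes 23 transporters were higher. The filters leave fewer genes to count, and the cause of the other shifts was not tested. Of the higher genes, 60 of 67 secreted factors, 53 of 66 receptors, 12 of 18 transcription factors and 11 of 13 transporters were called under every alternative that could give a value, and of the lower ones 22 of 33, 5 of 10, 9 of 21 and 7 of 15. No paired analysis was possible because each group is 1 array. Signal over background limits the dim genes: a level near 5.88 on PCC gives an uncertain fold.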

Other observations

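Some of the genes furthest apart belong to none of the 4 classes. Hspb1, a small heat shock chaperone, had intensities of 430 for PCC, 47.4 for CCC and 336 for MCC (7.86-fold lower on CCC). Mt2, a metallothionein that binds zinc and copper, was at 535, 105 and 21.2 in the same order (5.23-fold lower), and its relative Mt1, which was named after its values were seen, at 32549 and 13419 on PCC and CCC (2.77-fold lower). Dusp4, a phosphatase that switches off MAP kinases, went from 855 to 191 (4.74-fold lower). Ggt7 and Popdc3 were detected on PCC only, at least 4.24-fold and 3.53-fold lower on CCC. On the higher side, Ctsk, a cathepsin of osteoclasts and macrophages, went from 60.9 to 893 (9.09-fold), and Fcrls, a relative of the Fc receptors in mouse, was detected on CCC only, at 1215, at least 16.7-fold higher. Tbc1d10c, a regulator of lymphocyte signalling, went from 62.7 to 1074 (10.5-fold) and was at 4312 on MCC.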
